A study of Danio rerio with 6 samples.

Results

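The lysosomal acidification and degradation genes of zebrafish were taken by name from the Ensembl gene models in the deposited tables. The name pattern took the subunits of the vacuolar proton pump (atp6v), its accessory proteins (atp6ap), the cathepsins (cts followed by a letter), legumain, the lamp, laptm and scarb2 membrane proteins, prosaposin, the hexosaminidase chains, npc1 and npc2. It found 61 genes of the 32520 Ensembl genes and 59330 rows in all. By role these were 13 genes of the V1 sector of the pump, 9 of the V0 sector, 5 accessory genes, 21 cathepsin and legumain genes, 8 membrane protein genes, 3 genes of lipid degradation and 2 of cholesterol export. Since 4 separate rows carry the name ctslb, the 61 genes have 58 distinct names.

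The study sequenced polyadenylated RNA of GFP-positive cells from Tg(mpx:eGFP) zebrafish at day 2, or 48 hours post-fertilisation, and its purpose as stated was to learn how the zinc finger protein Znf711 acts in neutrophil development. Of the 6 libraries, 3 were labelled genotype WT with treatment control, and 3 were labelled genotype znf711 knockdown with treatment znf711 MO, a morpholino being an antisense oligonucleotide that blocks translation or splicing of its target. All 6 libraries carried the mpx:eGFP transgene, in which the promoter of the granule enzyme gene mpx drives the fluorescent protein, and the labels call the cells neutrophils. The series' design text speaks of znf711-/- larvae, whereas the sample labels speak of the morpholino; the groups follow the sample labels, and how control embryos were treated is not stated. Replicates are labelled biological, and neither the number of embryos pooled in each nor their clutches are stated.

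Lysosomes are kept acidic by the vacuolar ATPase, a rotary pump whose V1 sector hydrolyses ATP in the cytosol and whose V0 sector carries protons across the membrane. The acid pH activates cathepsins, proteases that degrade engulfed and endogenous proteins. Saposins and hexosaminidases take part in the breakdown of sphingolipids, and Npc1 and Npc2 export cholesterol. In neutrophils and macrophages the same machinery serves phagosomes and, in part, the granules; in mammals many of these genes are activated by the TFEB family of transcription factors.

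Total counts lay between 1629804 and 12093109 per library, and morpholino replicate 1 was the shallowest. With no count in a library, a level of up to 3 counts remains possible, from counting error only. By library this was between 0.248 and 1.84 CPM of all counts, without TMM. The targeted gene znf711 was found at 41.1, 16.5 and 9.79 CPM across control replicates. Across morpholino replicates it was at 0.537, 11.2 and 17.7 CPM, so the groups overlapped (log2 fold change -1.17 ± 1.29). The value of 0.537 CPM is a single count, in morpholino replicate 1. RNA levels do not measure the protein, so they do not show how far the knockdown worked. Levels are TMM-scaled CPM, counts relative to the library total, unless a sentence says otherwise. The neutrophil genes were present, 10 of 11 marker rows having counts in every library, but the sum of these markers (CPM of all counts, without TMM) was 2482, 12901 and 14133 for the controls in replicate order, against 3308, 12823 and 26773 under the morpholino. Macrophage markers summed to 600.7, 768.8 and 1603 CPM across controls, against 438.7, 1587 and 3074 CPM under the morpholino, on the same scale. Only 6 of the 21 macrophage rows had counts in every library. The most abundant was 1 MFAP4 row (ENSDARG00000088745), at 301 to 1474 CPM with TMM, so the sum leans on that row. The neutrophil marker lyz did not exceed 0.75 CPM in any library. Erythroid markers summed to between 2504 and 20618 CPM, with the highest sum in morpholino replicate 1 and the next highest in control replicate 1. On the same scale neural markers summed to 1334 to 3324 CPM and those of ionocytes, pump-rich cells of the skin, to 127 to 632.7 CPM. Only 1 of the 11 ionocyte rows had counts in every library. The most abundant was atp1a1a.1, at 102 to 579 CPM with TMM, so the sum alone does not show ionocytes. Of the 14 marker lists, the groups were separate for 2: connective tissue markers, of which 7 of 9 had counts in every library, summed to 596.3 to 1226 CPM in controls and 444.6 to 485.5 CPM under the morpholino. Muscle markers, 6 of 7 with counts in every library and mylpfa at 0, summed to 73.9 to 134.6 CPM in controls and 136.5 to 314.8 CPM under the morpholino. These sums are without TMM, and the muscle gap, 134.6 to 136.5 CPM, is too narrow to hold under every scaling. Of all single rows tested, by TMM-scaled CPM, 2.09% lay entirely above the controls and 5.35% entirely below. For summed lists no such share was computed. The part of these markers in the results below was not tested. The libraries highest in erythroid markers also had the lowest mpx levels, 520.4 CPM in control replicate 1 and 559 CPM in morpholino replicate 1, against 2703 to 5068 CPM in the other 4 libraries. The neutrophil growth factor receptor gene csf3r was at 107 CPM in morpholino replicate 3 and at 10.99 to 18.8 CPM in the other 5 libraries. In bulk libraries, fewer cells of a type and less RNA per cell cannot be told apart.

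Most of the lysosomal genes were expressed in the sorted cells. Counts were found in 55 of the 61 genes, and 40 of them had counts in all 6 libraries. No library had a count for atp6v0d1, atp6v1aa, atp6v1c2, atp6ap1lb, ctsll and 1 of the ctslb rows. A further 8 genes had counts too low, or in too few libraries, to be tested, namely atp6v1b2, atp6ap1la, ctsbb, ctso, laptm4b and the other 3 ctslb rows. The remaining 47 genes passed the filter on low counts and entered the comparison. Together the 61 genes took 0.413%, 0.559% and 0.570% of all counts in the controls, in replicate order, against 0.296%, 0.741% and 0.945% under the morpholino. The morpholino group thus held both the lowest and the highest share, and the groups overlapped (0.514 ± 0.0875% against 0.661 ± 0.332%, SD, n = 3 each).

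**Figure D1:**
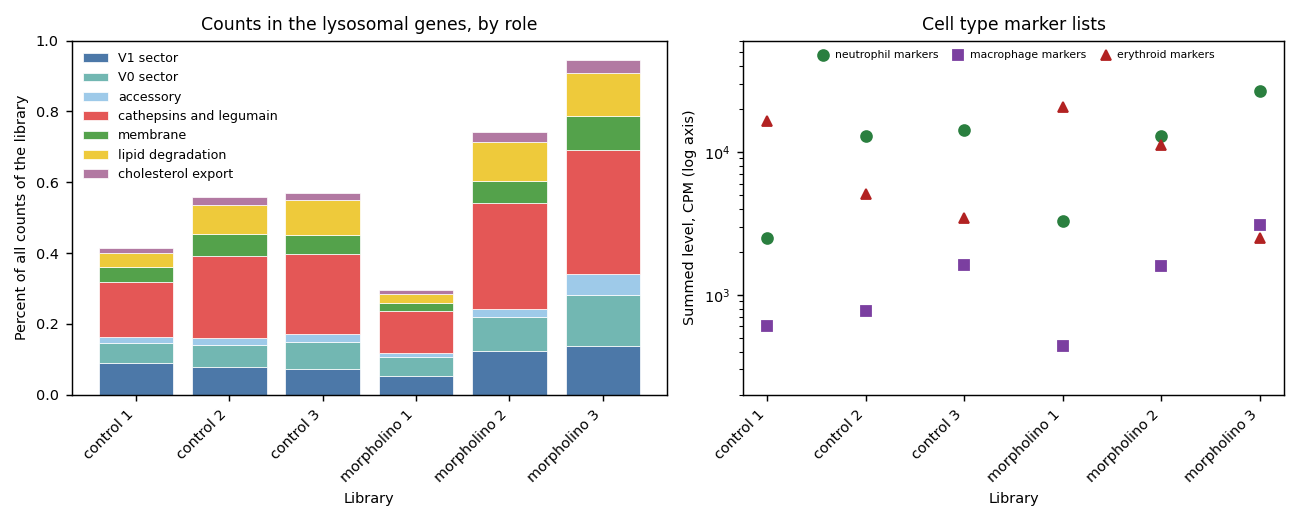
Percent of all counts of each library that fell on the 61 lysosomal genes, stacked by role (left), and summed levels of the neutrophil, macrophage and erythroid marker lists in CPM of all counts on a log axis (right), for the 6 libraries. The share was 0.296% in morpholino replicate 1 and 0.945% in morpholino replicate 3, with the neutrophil sum at 3308 and 26773 CPM in the same libraries. Control replicate 1 had the lowest neutrophil sum, 2482 CPM, at a share of 0.413%. Morpholino replicate 2 had 12823 CPM at 0.741%, against 12901 and 14133 CPM at 0.559% and 0.570% in control replicates 2 and 3. A relation between share and neutrophil sum was not tested.

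The knockdown question was whether these genes differ between morpholino and control cells. None of the 47 tested genes was called by edgeR's quasi-likelihood test: each had an adjusted p of 0.9999, and over all 16637 rows tested 0% were called. At an unadjusted p under 0.05, edgeR counted 0 of the 47 genes, where 1.05% of all rows reached it. At the same unadjusted threshold DESeq2 counted 1, ctsd, beside 2.46% of all rows, and limma-voom 1, ctsh, beside 2.1%. Without morpholino replicate 1, edgeR counted 6 of 49 genes, beside 3.16% of all rows. These were atp6v0b, atp6v1ba, atp6v1f, ctsc, ctsd and lamp1a, all higher, each with an edgeR adjusted p of 0.9998. That library was the lowest of its group in 43 of the 47 genes. With any other single library left out, edgeR counted 0 lysosomal genes, beside 337 to 498 of 18476 to 20092 rows. In the main comparison DESeq2 called 0.0721% of the same 16637 rows, and limma-voom called none. Neither called any of the 47. In DESeq2 on all rows with counts, 0.325% were called, 1 lysosomal gene among them, atp6ap1la. The SE of the log2 fold change over the 47 genes had a median of 0.73 and ran from 0.45 to 2.25. A p above the threshold here does not show that a gene stayed the same.

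Fitted log2 fold changes were positive for 31 of the 47 genes, and their median was 0.16, beside 44.3% positive and a median of -0.12 over all rows tested. The V1 sector had 7 of 10 positive (median 0.28), the V0 sector 4 of 8 (median -0.09) and the accessory genes 2 of 3 (median 0.15). Of the cathepsins with legumain 10 of 14 were positive (median 0.15), of the membrane proteins 4 of 7 (median 0.34), of the lipid degradation genes 2 of 3 (median 0.04), and of the cholesterol exporters both (median 0.23). The direction of these medians rested on single libraries, that of the V1 sector excepted (0.06 to 0.62 as each library was left out). Without morpholino replicate 2 the cathepsins and legumain had a median of -0.20 with 5 of 14 positive, and the lipid degradation genes -0.36 with 0 of 3. Without morpholino replicate 3 the membrane proteins had -0.19 with 2 of 8 positive, the accessory genes -0.56 with 0 of 3, the lipid degradation genes -0.18, the cathepsins -0.07 and the cholesterol exporters -0.09. Without control replicate 1 the V0 sector had 0.48, the accessory genes -0.04, the membrane proteins -0.09, the lipid degradation genes -0.33 and the cholesterol exporters -0.08. Without morpholino replicate 1 the V0 sector had 0.39, and without control replicate 2 it had 0.14. The overall median was -0.11 without morpholino replicate 2 and -0.16 without morpholino replicate 3, beside -0.31 and -0.37 over all rows tested. It was 0.52 without morpholino replicate 1 and 0.05 without control replicate 1, beside -0.03 and -0.11 over all rows. The median over all rows thus also fell, from -0.12, without morpholino replicate 2 or 3. Leaving out both libraries of lowest mpx level gave a median of 0.31 with 39 of 48 genes positive, beside 0.02 over all rows.

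**Figure D2:**
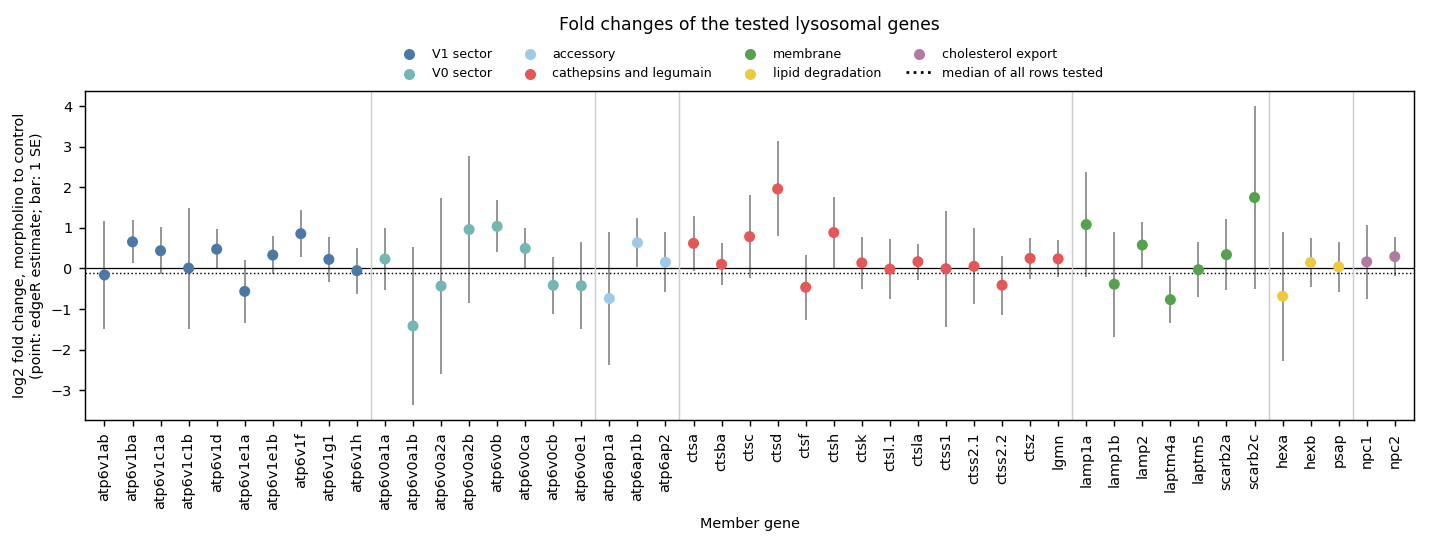
Fitted edgeR log2 fold changes, morpholino to control, of the 47 tested lysosomal genes (points, coloured by role; bars are 1 SE), with the median of all 16637 rows as a dotted line. Most bars cross 0, and no gene passed the adjusted threshold.

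Within the V1 sector, the ATP-hydrolysing part of the pump, the highest mean FPKM belonged to a peripheral stalk gene (183). The E subunit gene atp6v1e1b (ENSDARG00000030694, GRCz11 chromosome 4, 5240126 to 5247335, minus strand), which encodes a stalk that holds the catalytic head still, was present at 173, 208 and 287 CPM across control replicates, against 151, 358 and 330.4 CPM across morpholino replicates. Morpholino replicates 2 and 3 lay above every control, whereas morpholino replicate 1 lay below every control (log2 fold change 0.33 ± 0.47). Its copy atp6v1e1a stood at 72.8, 46.8 and 63.2 CPM across control replicates, against 4.83, 59.6 and 58.3 CPM across morpholino replicates. The low value again came from morpholino replicate 1, and the other values of atp6v1e1a lay within the control range (-0.57 ± 0.77).

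The rotor and regulatory genes of V1 also had their lowest level in morpholino replicate 1. The D subunit gene atp6v1d, part of the central shaft that turns as ATP is split, was found at 99.7, 120.2 and 97.4 CPM across control replicates, against 81.6, 180.4 and 179 CPM across morpholino replicates. Its control values were close together, and the morpholino values lay below and above them (0.48 ± 0.49). The H subunit gene atp6v1h, needed for activity and for coupling of the sectors, was present at 108, 147 and 146 CPM across control replicates, against 37.6, 223 and 124 CPM across morpholino replicates. Here the morpholino group spanned the controls on both sides (-0.05 ± 0.57). Of the other tested V1 genes, atp6v1f, which encodes the other shaft subunit, had the most positive estimate (0.86 ± 0.59), with 39.9, 72.8 and 52.9 CPM for controls against 39.2, 139 and 121 CPM under the morpholino. Its values overlapped only through morpholino replicate 1, which lay just below the lowest control. The span of atp6v1f overlaps lamtor4 on the opposite strand. Strand use is not stated, so the assignment of reads in any shared stretch is uncertain. Whether their exons overlap was not examined. In all 19 settings of the processing, the main one included, atp6v1ba, atp6v1c1a, atp6v1d, atp6v1e1b and atp6v1f had a positive estimate, none of them called. The settings refit the same 6 libraries or subsets of them, so here and below a shared sign is no independent support. The share of all rows that kept their sign is not given. Across all 10 tested V1 genes, morpholino replicate 1 was the lowest of its group, as it was for 61.2% of all rows tested.

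Within the V0 sector, which holds the proton path, the highest mean FPKM belonged to a ring gene (384). The c subunit gene atp6v0ca (ENSDARG00000057853, GRCz11 chromosome 3, 16044680 to 16055463, minus strand), whose product carries protons around the rotating ring, stood at 291, 538 and 789.6 CPM across control replicates, against 352, 906 and 1022 CPM across morpholino replicates. Morpholino replicates 2 and 3 exceeded every control, while morpholino replicate 1 fell among them (0.50 ± 0.50). Its copy atp6v0cb was found at 81.4, 21.9 and 39.3 CPM across control replicates, against 41.3, 32.2 and 33.6 CPM across morpholino replicates. All 3 morpholino values of atp6v0cb lay inside the control range (-0.41 ± 0.71). The gene atp6v0b, which encodes another proteolipid of the ring, was present at 24.1, 60.99 and 38.5 CPM across control replicates, against 59.6, 48.8 and 145.6 CPM across morpholino replicates. Only morpholino replicate 3 lay above all controls for atp6v0b (1.04 ± 0.64). Like atp6v0a2b, both atp6v0ca and atp6v0b had a positive estimate in all 19 settings. Of the remaining V0 genes the lowest estimate was that of atp6v0a1b (-1.42 ± 1.94), with a highest value of 23.9 CPM in control replicate 1. That direction turned without control replicate 1 (1.73), without both libraries of lowest mpx level (2.29) and with replicate number as a block (0.54).

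The a subunits, which form the proton channels and direct the pump to particular membranes, were low in FPKM under the names atp6v0a1 and atp6v0a2. The atp6v0a1 and atp6v0a2 copies together had a mean deposited FPKM of 15.8, against 408 for the c subunit genes. The a3 subunit is encoded under another name, tcirg1b, which the name pattern did not take; in mammals a3 serves secretory lysosomes of osteoclasts and other cells. It stood at 82.5, 153 and 170 CPM across control replicates, against 39.7, 200.03 and 480 CPM across morpholino replicates. Morpholino replicate 1 lay below and morpholino replicates 2 and 3 above every control for tcirg1b (0.83 ± 0.69). Its copy tcirg1a did not exceed 6.85 CPM in any library.

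The accessory proteins, which help assemble the pump and connect it to signalling, differed in level between copies. The Ap1 gene atp6ap1b was found at 55.8, 120 and 136 CPM across control replicates, against 49.9, 123 and 311 CPM across morpholino replicates. Morpholino replicate 1 lay below the controls and morpholino replicate 3 above them, and the log2 fold change of 0.64 ± 0.61 changed sign without replicate 3 (-0.26). The second copy, atp6ap1a, was present at 15.1, 0.492 and 13.1 CPM across control replicates, against 2.68, 4.41 and 9.90 CPM across morpholino replicates. Its values overlapped throughout (-0.74 ± 1.65). The Ap2 gene atp6ap2, known in mammals as the prorenin receptor, stood at 79.3, 95.8 and 158 CPM across control replicates, against 13.4, 135 and 221 CPM across morpholino replicates. Its morpholino values spanned the controls from below to above (0.15 ± 0.74).

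Compared per length by the deposited FPKM, the pump subunits were far from equal in level. The summed FPKM over copies had a mean of 408 for the c subunit and 209.5 for E, followed by 93.5 for G and 81.3 for F. It was between 41.5 and 57.8 for B, C, D and H, 32.5 for the b gene, 6.64 for the catalytic A subunit and 5.20 for the e gene. The A subunit came from atp6v1ab alone, since atp6v1aa had no count. The d subunit gene atp6v0d1, which couples the shaft to the ring, had no count. Each of these rows is matched by an unnamed gene model that the tables place on an alternate scaffold of the same chromosome, on the same strand, at overlapping positions and with a span 0.9 to 1.1 times as long. Those models did have counts: 54, 123 and 116 across controls, against 2, 527 and 202 under the morpholino, for the model at atp6v1aa, and 21, 108 and 21 against 5, 102 and 95 for that at atp6v0d1. The models at atp6v1ba and atp6v1g1 held 5489 and 3128 counts over the 6 libraries, against 5375 and 5288 for the genes. With the FPKM of the models added, the subunit means were 13.1 for A, 82.4 for B, 166 for G and 3.06 for d, so the place of B among C, D, F and H depends on them. A match of position is a description and gives the models no gene name. Adding the counts of the models to those rows made both testable, with log2 fold changes of 0.80 ± 1.23 for atp6v1aa and 0.17 ± 1.62 for atp6v0d1.

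**Figure D3:**
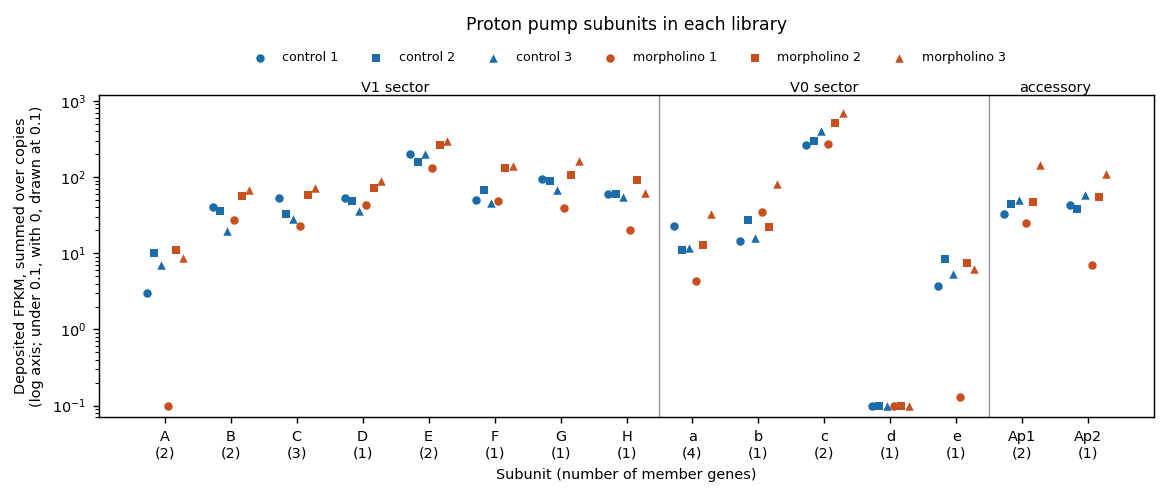
Deposited FPKM of the pump subunits, summed over the copies that the name pattern took, in the 6 libraries on a log axis. The a subunit is thus drawn without tcirg1a and tcirg1b, and unnamed models are not included. Values under 0.1, with 0, are drawn at 0.1. The c and E subunits lie highest of the sums drawn, with means of 408 and 209.5. The d subunit lies at 0 in every library, and its mean is 3.06 with the matching model added.

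Levels ranked across all 61 genes by mean FPKM put atp6v0ca first (384), then ctsba (299), psap (289), ctsla (233) and laptm5 (232). For 33 of the 55 genes with counts the deposited FPKM rests on a shorter length than the tables list. By CPM per kilobase of the listed length laptm5 ranked first and ctsba eighth, so the order of these genes depends on the length used.

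For most copied genes, 1 copy held most of the FPKM of its pair in every library. The share of the higher copy was 79.3% to 97.0% for atp6v0ca, 77.0% to 97.8% for atp6v1e1b, 77.5% to 97.9% for atp6v1c1a, 84.9% to 99.7% for atp6ap1b, and 99.8% to 100% for the cathepsin B gene ctsba. Other shares came nearer to an even split, down to 50.5% for atp6v0a1a in control replicate 1. For ctss2.1 beside ctss2.2 the lowest was 58.4%, in morpholino replicate 1. The order of the lamp1 copies and of the atp6v0a2 copies was not the same across libraries. In the 5 libraries with counts, the share of lamp1a ran from 28.1% to 83.2% and was the higher in 4 of them, and the share of atp6v0a2b ran from 23.1% to 100% and was the higher in 3. Reads of near-identical copies may be split or lost in counting, so these shares are uncertain. In addition, 12 of the 61 genes overlap another counted row, among them atp6v0e1, whose opposite-strand neighbour had 1633 counts against its own 1381 over all libraries.

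The cathepsins and legumain, the lysosomal proteases, held a larger share of counts than any other role in all 6 libraries. They took 0.156%, 0.233% and 0.225% of all counts across controls, against 0.120%, 0.299% and 0.351% under the morpholino. As for the whole set, the morpholino group held both the lowest and the highest share. This role also has the most genes, 21, and the pump genes are split over the V1, V0 and accessory roles. Shares of counts are not set per length, so the rank among roles depends on this grouping. The cysteine protease cathepsin B gene ctsba (ENSDARG00000055120, GRCz11 chromosome 17, 32622931 to 32631514, plus strand) was found at 422, 729.7 and 1002 CPM across control replicates, against 262, 978 and 1072 CPM across morpholino replicates. Morpholino replicate 1 lay below every control, replicate 2 within their range and replicate 3 above it (0.10 ± 0.52).

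The other abundant cathepsins also had overlapping groups. The cathepsin L gene ctsla, an endopeptidase of the lysosome, was present at 378, 629.7 and 409 CPM across control replicates, against 342, 753 and 496 CPM across morpholino replicates. Its morpholino values reached from below to above the controls (0.17 ± 0.45), and its highest library was 2.202-fold its lowest. The gene ctss2.1, named as a cathepsin S, a protease known from antigen-presenting cells of mammals, stood at 74.8, 306 and 479.8 CPM across control replicates, against 27.4, 436 and 428 CPM across morpholino replicates. The lowest library of each group was replicate 1, and the groups overlapped (0.05 ± 0.94). The gene ctss1 was present at 2.72, 65.9 and 88.9 CPM for controls, against 0.537, 79.0 and 76.5 CPM under the morpholino, where the lowest value is a single count. Legumain, lgmn, which activates cathepsins by cleavage, had the narrowest range of the 40 tested genes with counts in every library, 1.82-fold between its highest and lowest CPM. Estimates of the tested cathepsins ran from -0.46 ± 0.80 for ctsf to 1.96 ± 1.17 for ctsd, with ctsh at 0.89 ± 0.89 and ctsc, which activates granule serine proteases in mammals, at 0.79 ± 1.03. In all 19 settings ctsa, ctsd, ctsh and lgmn had a positive and ctss2.2 a negative estimate. The cathepsin B copy ctsbb did not exceed 1.11 CPM in any library.

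The aspartic protease cathepsin D gene, ctsd (ENSDARG00000057698, GRCz11 chromosome 18, 16133595 to 16146081, plus strand), was the only one of the 47 tested genes whose groups did not overlap. It was found at 4.61, 8.12 and 7.51 CPM across control replicates, against 22.5, 12.7 and 43.8 CPM across morpholino replicates. Each morpholino value lay above each control value, and the lowest morpholino value was 12.7 CPM against a highest control of 8.12 CPM. Of all rows tested, 2.09% had a morpholino group entirely above the controls and 5.35% a group entirely below them, and 1 of 47 lies near that background. Neither test called it: the edgeR log2 fold change was 1.96 ± 1.17 (adjusted p 0.9999), and the DESeq2 adjusted p was 0.99993. The raw counts behind these levels were 39, 66 and 46 for controls, against 42, 135 and 451 under the morpholino. An unnamed model of matching position on an alternate scaffold held 21, 54 and 18 counts across controls, against 0, 115 and 105 under the morpholino, and with it added the log2 fold change was 1.63 ± 0.99.

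**Figure D4:**
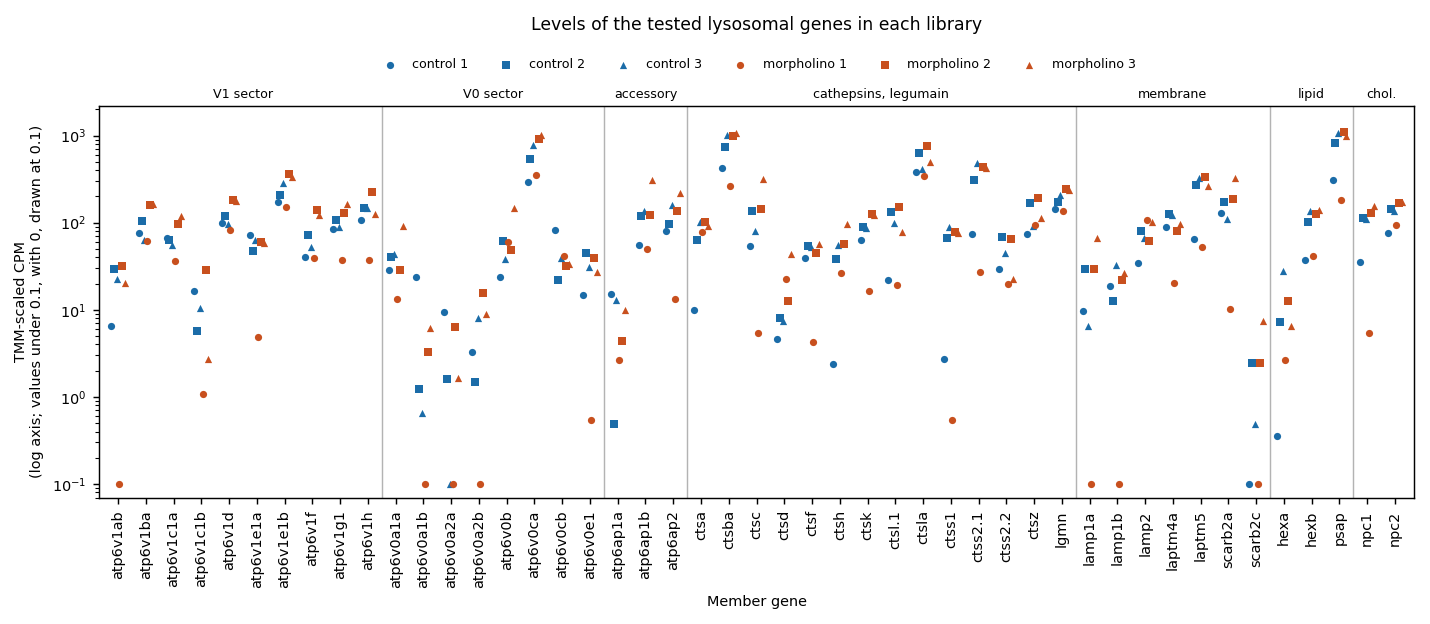
TMM-scaled CPM of the 47 tested lysosomal genes in each of the 6 libraries on a log axis, grouped by role (blue, controls; orange, morpholino; values under 0.1, with 0, drawn at 0.1). For ctsd, the 3 morpholino values (12.7 to 43.8) lie above the 3 controls (4.61 to 8.12), and no other gene has separate groups.

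The lower end of each group was set by the same libraries in most of these genes. Control replicate 1 was the lowest of the controls in 34 of the 47 genes (72.3%), and in 36.6% of all rows tested. Morpholino replicate 1 was the lowest of its group in 43 (91.5%), beside 61.2% of all rows, and morpholino replicate 3 was never the lowest, beside 21% of all rows. A tie was counted for no library. For the 14 tested cathepsin and legumain genes, control replicate 1 was the lowest control in all 14, and morpholino replicate 1 the lowest of its group in 13. In morpholino replicate 1, 7 of the 47 genes had no count and 14 had fewer than 10, at the shallowest depth of the study. Both of these libraries had the lowest mpx and neutrophil marker sums given above; the part of depth or of cell makeup in these values was not tested.

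**Figure D5:**
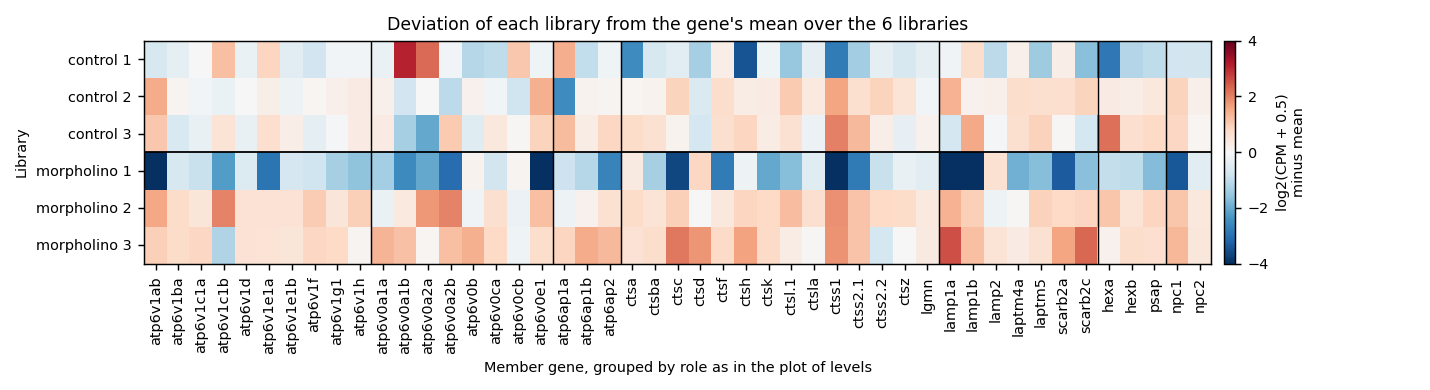
Deviation of each library from the gene's mean over the 6 libraries, as log2(CPM + 0.5) minus that mean, for the 47 tested lysosomal genes grouped by role (red, above the mean; blue, below; the colour scale ends at 4 either way). Morpholino replicate 1 is the lowest of its group in 43 genes and control replicate 1 of the controls in 34.

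The membrane proteins line the lysosome and carry or anchor its cargo. The gene laptm5, whose product is a lysosomal transmembrane protein of blood cells in mammals, was present at 65.0, 270.3 and 329 CPM across control replicates, against 52.6, 332 and 265 CPM across morpholino replicates. Replicate 1 was lowest in both groups, and the groups overlapped (-0.03 ± 0.69). The gene laptm4a, encoding a related transporter-like protein, stood at 89.9, 127 and 122 CPM across control replicates, against 20.4, 80.1 and 97.6 CPM across morpholino replicates. Morpholino replicates 1 and 2 lay below every control and morpholino replicate 3 within the control range (-0.77 ± 0.58). The gene scarb2a, whose mammalian counterpart delivers glucocerebrosidase to lysosomes, was found at 129, 173 and 110.5 CPM across control replicates, against 10.197, 187 and 325 CPM across morpholino replicates. Its morpholino values reached from far below to above the controls (0.34 ± 0.87). In all 19 settings lamp2 had a positive and laptm4a a negative estimate, and neither was called. The copy laptm4b did not exceed 2.95 CPM.

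Genes of sphingolipid breakdown and cholesterol export had overlapping groups as well. Prosaposin, psap (ENSDARG00000013968, GRCz11 chromosome 13, 5004924 to 5028964, plus strand), is the precursor of the saposins that present sphingolipids to their hydrolases, and it was present at 307, 830.3 and 1073 CPM across control replicates, against 183, 1108 and 983 CPM across morpholino replicates. It was among the highest per length, at a mean FPKM of 289, and its groups overlapped (0.04 ± 0.62). The hexosaminidase chain genes, hexb and hexa, which cleave terminal sugars from gangliosides, were unequal in level. The gene hexb stood at 37.5, 102 and 137 CPM across control replicates, against 41.9, 125 and 139 CPM across morpholino replicates. Its groups overlapped, and both replicates 1 were the lowest (0.15 ± 0.60). The gene hexa was found at 0.355, 7.25 and 28.1 CPM across control replicates, against 2.68, 12.7 and 6.50 CPM across morpholino replicates. The 3 morpholino values lay inside the wide control range (-0.69 ± 1.60).

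The cholesterol exporters npc1 and npc2 differed in their spread. The membrane transporter gene npc1 was present at 35.6, 114 and 109 CPM across control replicates, against 5.37, 131 and 154 CPM across morpholino replicates. Morpholino replicate 1 lay far below the rest, and morpholino replicates 2 and 3 lay above every control (0.16 ± 0.91). The soluble carrier gene npc2 (ENSDARG00000090912, GRCz11 chromosome 17, 43030317 to 43031828, minus strand) stood at 75.6, 145 and 135 CPM across control replicates, against 94.5, 168 and 174 CPM across morpholino replicates. Its morpholino replicates 2 and 3 lay above every control, replicate 1 within the control range (0.29 ± 0.49).

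Lysosomal genes that the name pattern left out were counted in the same way. Of a list of 102 other lysosome genes with a row, 77 were tested, 46 had a positive fold change, beside 44.3% of all rows, and the median log2 fold change was 0.11. Single libraries turned this direction: 17 of 78 were positive without morpholino replicate 3 (median -0.43), 35 of 81 without control replicate 1 (-0.09) and 67 of 84 without morpholino replicate 1 (0.57). Over all rows tested, the same settings in that order had 36.7% (-0.37), 45.9% (-0.11) and 48.4% (-0.03) positive. Groups did not overlap for 5 of the 77 tested genes of this list, 3 higher and 2 lower. Of all rows, 2.09% lay entirely above and 5.35% entirely below, so 5 of 77 is near that background. The tripeptidyl peptidase gene tpp1 was found at 15.5, 57.7 and 39.2 CPM across control replicates, against 83.2, 71.8 and 86.4 CPM across morpholino replicates, so every morpholino value lay above every control (1.103 ± 0.63, edgeR adjusted p 0.9999). The others were galns (1.93 ± 1.48) and dnase2 (1.69 ± 1.14), which lay above the controls, and arsa (-3.70 ± 2.22) and sgsh (-0.88 ± 1.30), which lay below them. The gene tfec, a TFEB family member, was present at 19.7, 47.7 and 68.5 CPM across control replicates, against 0, 71.2 and 216 CPM across morpholino replicates. Its morpholino values lay below and above the controls (1.09 ± 1.44), and tfeb, which drives lysosomal gene expression in mammals, had a log2 fold change of 0.08 ± 1.33. Of the other family members, tfe3a had 0.02 ± 1.97 and mitfa -0.54 ± 2.08, and tfe3b did not pass the filter on low counts.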

How the data were processed

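Polyadenylated RNA of GFP-positive cells was measured in 3 control and 3 znf711 morpholino libraries, grouped by their titles. Each deposited table holds raw counts and FPKM, per the file headers; the FPKM values were computed by the authors. The submitters' processing notes name build GRCz11 and, with no role or order, HISAT2 2.0.5, DESeq2 1.16.1, edgeR, HTSeq and Trimmomatic. No source used here gives the annotation release, strand use or treatment of multi-mapping reads, so counts of overlapping genes and near-identical copies are uncertain.

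The counts went into edgeR 4.0.16 (R 4.3.3): filterByExpr with a minimum count of 10, TMM scaling, the robust quasi-likelihood fit with group as the only term, and Benjamini-Hochberg adjustment over the 16637 tested rows at a threshold of 0.05. Each SE is the size of the log2 fold change over the root of its F statistic. FPKM was used only to compare genes with each other. P-values set the group difference against the spread between these 3 libraries per group, estimated with information from all rows tested. Alternatives were DESeq2 1.42.0, voom in limma 3.58.1, other scalings and filters, Ensembl rows alone, a replicate block and leaving out each library. Runs without both libraries of lowest mpx level, with unnamed models added, and with DESeq2 on all rows were added after seeing the data. Scripts were first tested on simulated data. Genes and gene lists were chosen with earlier results of these data known. Values per library are given for the 3 most abundant tested genes of each role, their tested copies, lysosomal genes of the name pattern whose groups did not overlap, and, outside the pattern, znf711, tcirg1b, tfec and tpp1. Copies too low to test are given by their highest level. Other genes were chosen after their values were seen. No sequences are shown.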

Additional observations from a re-analysis of the deposited data

Results flagged for a closer look

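The genes and unnamed models listed first here were picked because their highest count lay in a morpholino library, so that direction is no result. These are raw counts, and morpholino replicates 2 and 3 were the deepest libraries. The accessory gene atp6ap1la had 70 counts in morpholino replicate 1 and none in the other 5 libraries; DESeq2 on all rows with counts called it (adjusted p 7.48e-13), and edgeR without a filter did not (adjusted p 0.454). Of the ctslb rows, named for a cathepsin known from the hatching gland of zebrafish, ENSDARG00000074306 reached 25 counts and ENSDARG00000087651 reached 15, both without a count in the controls. These rows overlap each other. The hatching gland marker list summed to between 22.4 and 90.4 CPM of all counts. That list includes the 4 ctslb rows, so it is no independent measure beside them. Counts in every library were found for 2 of its 9 rows, and its most abundant gene was klf17. The gene ctso reached 5 counts in morpholino replicate 3, without a count in the controls. The gene laptm4b reached 26 in morpholino replicate 2 beside 24 in control replicate 2, and its level was the higher in that control (2.95 CPM against 2.44). Among untested genes with their highest count in a control, atp6v1b2 had 93 counts in control replicate 1 and 26 in morpholino replicate 2. The gene ctsbb had 9 counts, all in control replicate 2. Both were chosen after their values were seen.

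The unnamed gene models placed on alternate scaffolds at the position of atp6v1aa, atp6v1ba, atp6v1g1 and ctsd reached 527, 1924, 1108 and 115 counts. Each of these counts was in a morpholino library, whereas the model at atp6v0d1 had its highest, 108, in control replicate 2. With the models added, the log2 fold change was 0.74 ± 0.52 for atp6v1ba and 0.51 ± 0.44 for atp6v1g1.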

How the results depend on the processing

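No lysosomal gene was called under any setting but 1: DESeq2 on all rows with counts called atp6ap1la. Over all rows, the count of calls was 0 by edgeR, 2 without a filter, 12 by DESeq2, 140 by DESeq2 on all rows with counts, and 0 to 2 when 1 library was left out. Same-numbered libraries deviated with correlations of 0.15, 0.122 and 0.0242, against -0.148 to 0.0743 for libraries of different number. These values do not settle whether the numbers mark pairs. The labels state no pairing, so the numbers were not taken as pairs. With a replicate block no row was called, and 22 of the 47 tested genes were positive, with a median log2 fold change of -0.05. Over all rows tested, 38.3% were positive with the block, with a median of -0.30. The signs that follow are those of the 22 tested genes defined at the end of this paragraph. Under that block the log2 fold change took the other sign for atp6ap2 (-0.41), ctsba (-0.0521), ctss2.1 (-0.35), hexa (0.50), npc1 (-0.53), psap (-0.15) and scarb2a (-0.43). With limma-voom it did so for atp6ap1a (0.27), atp6v1h (0.0182), hexa (0.88) and laptm5 (0.30), and with library totals alone for atp6v1h (0.0082) and laptm5 (0.15). Without both libraries of lowest mpx level it did so for atp6ap1a (0.0826), atp6v0cb (0.11), atp6v1e1a (0.10) and atp6v1h (0.25). Leaving out 1 library at a time gave ranges of -0.258 to 1.055 for atp6ap1b, -0.56 to 0.67 for atp6ap2, -0.80 to 0.21 for atp6v0cb, -0.75 to 0.37 for atp6v1h, -0.20 to 0.51 for ctsba and -0.24 to 0.42 for ctsla. They were -0.40 to 0.66 for ctss2.1, -1.40 to 0.94 for hexa, -0.23 to 0.54 for hexb, -0.50 to 0.43 for laptm5, -0.32 to 0.71 for npc1, -0.36 to 0.50 for psap and -0.46 to 0.88 for scarb2a. The cause was not tested. Of the 22 tested genes chosen by abundance, as a copy of such a gene, or by groups that did not overlap, 7 kept their direction under all 18 alternatives. Depth limits morpholino replicate 1 most, where 3 counts are 1.84 CPM of all counts, without TMM.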
